A study of Mus musculus with 240 samples.

Results

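Complement is a cascade of plasma and tissue proteins that tags cells and debris for removal, and 8 of its genes are described here. The members were chosen by name, as the rows of the deposited count table whose symbol is C1qa, C1qb, C1qc, C3, C4b, C3ar1, C5ar1 or Serping1, and all 8 were found among its 34623 genes. RNA came from mouse brain oligodendrocyte precursor cells (OPCs, the glial progenitors that make myelinating cells) or brain tumour cells, which were positive for the fluorescent reporter tdTomato and were cut out of frozen sections by laser capture. The bulk groups were Trp53-/- Nf1-/- mice (labelled CKO, or Tumor at the last time) and wild-type (WT) mice at 12, 90 and 150 days after the start of tamoxifen treatment (dpi), and all of them, WT included, were tamoxifen-treated and tdTomato-positive. There were 7 CKO and 5 WT animals at 12 dpi, 7 CKO and 5 WT at 90 dpi, and 7 Trp53-/- Nf1-/- tumours and 6 WT animals at 150 dpi. A tumour-free Trp53-/- Nf1-/- group at 150 dpi was not analysed here, so at that time genotype and tumour cannot be told apart. Smaller libraries came only from Trp53-/- Nf1-/- mice at 12 and 90 dpi, from 10 captured cells each (56 libraries per time) or from pooled material split into 10-cell equivalents as a control (40 libraries per time). The promoter behind the Cre recombinase and the age at treatment are not given in the sources used here.

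In the classical pathway, the C1q complex, built from the chains encoded by C1qa, C1qb and C1qc, binds its target and starts the cleavage of C4 and then of C3, whose fragments coat the target. The small fragments C3a and C5a signal through the receptors encoded by C3ar1 and C5ar1, and the C1 inhibitor encoded by Serping1 restrains the first step. In brain, C1q is made mainly by microglia and other macrophages, C4 and C3 also by astrocytes and other cells, and the pathway is known for its part in synapse removal.

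The 3 C1q genes lie side by side on the minus strand of chromosome 4 (GRCm38), within 18675 bases. C1qb (ENSMUSG00000036905) spans 136880129 to 136886187, C1qc (ENSMUSG00000036896) 136889804 to 136893065 and C1qa (ENSMUSG00000036887) 136895917 to 136898803. C3 (ENSMUSG00000024164) is on chromosome 17 from 57203970 to 57228136, and C4b (ENSMUSG00000073418) on the same chromosome from 34728380 to 34743882. C3ar1 (ENSMUSG00000040552) lies on chromosome 6 from 122847138 to 122856161, C5ar1 (ENSMUSG00000049130) on chromosome 7 from 16246743 to 16259540, and Serping1 (ENSMUSG00000023224) on chromosome 2 from 84765387 to 84775444. Reads of C4b cannot be separated from those of its near-identical neighbour C4a, which was not analysed here.

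The promoters of C1qb and C1qc are printed because these neighbouring genes rose together in tumours. The windows are the 250 bases before the RefSeq start (GRCm38.p6, minus strand), chr4:136886201-136886450 for C1qb and chr4:136892915-136893164 for C1qc. The RefSeq start of C1qc lies inside the first exon of the GENCODE gene given above, so for C1qc only the 99 bases ahead of that exon, chr4:136893066-136893164, are shown. Capitals mark the PU box, the core site of the myeloid factor PU.1, searched as GAGGAA on both strands, so that it reads TTCCTC where it is on the other strand.
C1qb: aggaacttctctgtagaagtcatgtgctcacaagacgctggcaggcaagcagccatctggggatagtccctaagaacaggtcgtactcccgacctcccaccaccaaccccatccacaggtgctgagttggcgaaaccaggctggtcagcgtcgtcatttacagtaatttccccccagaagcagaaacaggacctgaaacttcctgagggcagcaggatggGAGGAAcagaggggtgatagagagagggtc
C1qc: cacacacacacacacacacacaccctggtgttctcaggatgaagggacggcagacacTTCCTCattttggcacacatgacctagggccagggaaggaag
The box begins 30 bases before the RefSeq start in C1qb and 193 bases before it in C1qc, and 43 and 42 bases before the GENCODE starts. The same window of C3, C3ar1 and C5ar1 did not hold these letters, so that 2 of the 5 members with a promoter in the table had a match, against 23.3% of 32851 promoters of the same length. A match of this kind describes the letters and is no evidence of binding.

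The bulk libraries held 2.05 to 23.2 M counts each (M, 1e+06), apart from 1 WT library at 90 dpi (WT_21167) with 0.0936 M, in which 3 counts correspond to 28.4 CPM (counts per M of the TMM-scaled total). The summed level of 10 OPC markers had a median of 1259 to 1658 CPM in the groups without tumours and 3986 CPM in tumours. None of them was at 0 throughout a group, but that held for every cell type list used here, so it does not test the OPC label. Astrocyte markers (median sums of 3220 to 3819 CPM) and oligodendrocyte markers (1838 to 3203 CPM) were above the OPC markers in the groups without tumours. Neuron markers were also abundant, with a median sum of 8894 CPM in WT at 150 dpi and 523 CPM in tumours, so neuronal transcripts were part of the captured material. Of the 11 animals with 2 libraries, which were summed, CKO_20647 at 90 dpi stood apart: its 2 libraries correlated at r = 0.886 across genes (log2(CPM + 1)) against 0.972 to 0.995 in the other 10 pairs. One of them held 13265 detected genes, a microglia marker sum of 21.0 CPM and 5 of the 8 members at 0 counts, and the other 17957 genes, a sum of 442 CPM and none at 0. For C1qa and C4b, the fitted changes named below that use this animal are given with and without it.

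All 8 complement genes rose in tumours over WT at 150 dpi. The 3 C1q subunits rose together by 7.51- to 7.72-fold, C4b by 15.0-fold and C3, nearly absent in WT, by 68.4-fold. The receptor genes C3ar1 and C5ar1 and the inhibitor gene Serping1 rose by smaller factors, and the call for C5ar1 was marginal. A gene was called when its Benjamini-Hochberg adjusted p from edgeR's quasi-likelihood test, over 16349 genes, was under 0.05. By that rule 24.3% of all genes tested were called higher in tumours, and the median log2 change of the members was 2.92 against 0.06 over all genes.

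**Figure D1:**
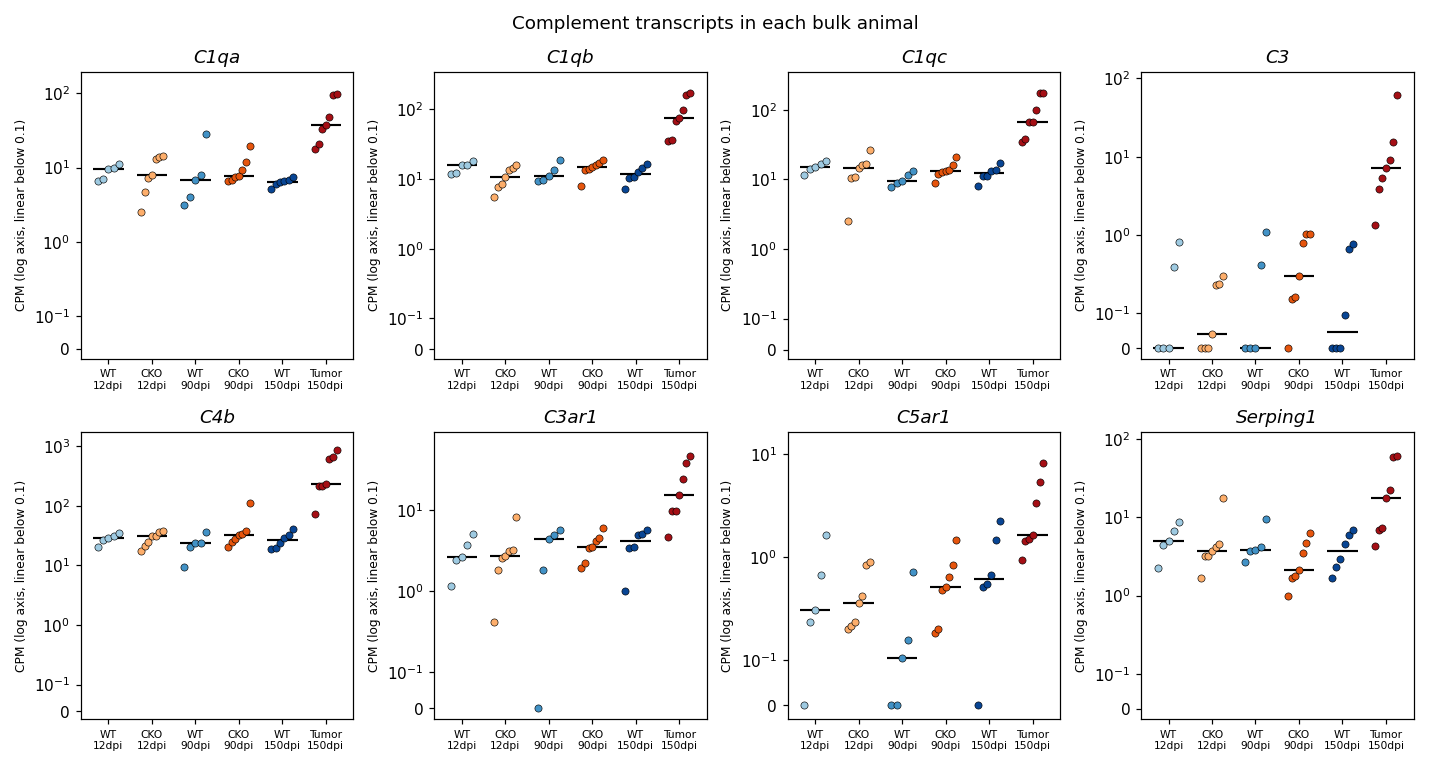
Each panel plots 1 complement gene, with the CPM of every bulk animal on a log axis (linear below 0.1) and the group median as a bar. For C1qb, C1qc and C3 all 7 tumours lie above all 30 other animals, and for C5ar1 only 3 of 7 do.

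C1qa, which encodes the A chain of C1q, was at 17.8, 20.9, 32.7, 36.9, 48.4, 93.9 and 97.3 CPM in the 7 tumours. In WT at 150 dpi the 6 animals had 5.10, 6.01, 6.33, 6.62, 6.81 and 7.54 CPM. The groups did not overlap, and by edgeR the log2 difference came to 2.95 (SE 0.41, adjusted p 2.4e-07).

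C1qb, the B chain gene, had 35.4, 36.3, 67.0, 75.9, 97.3, 161 and 172 CPM in tumours. WT animals at 150 dpi had 7.25, 10.2, 10.7, 12.7, 14.4 and 16.1 CPM. Every tumour was above every other bulk animal of the study, and by edgeR the log2 difference from WT came to 2.94 (SE 0.32, adjusted p 1.2e-09).

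C1qc, the C chain gene, had 34.9, 38.7, 65.9, 67.3, 100.3, 176 and 176 CPM in tumours. In WT at 150 dpi it was at 7.93, 11.0, 11.0, 13.4, 13.8 and 17.2 CPM. The groups did not overlap here either, and by edgeR the log2 difference came to 2.91 (SE 0.36, adjusted p 2.3e-08). The 3 chains kept similar proportions: C1qa made up a median of 21.3% of the summed C1q CPM in tumours and 20.7% in WT at 150 dpi, C1qb 38.9% and 38.8%, and C1qc 39.8% and 41.2%.

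C4b, the mouse C4 gene of the classical and lectin pathways, was the most abundant member in CPM. Its levels were 71.4, 213, 216, 235, 607, 664 and 856 CPM in tumours. WT animals at 150 dpi had 18.6, 19.8, 23.5, 28.7, 32.8 and 41.2 CPM. No WT animal at 150 dpi reached the lowest tumour, and by edgeR the log2 difference came to 3.90 (SE 0.43, adjusted p 1.5e-09). Per kilobase of exon the order of the medians differed between the groups: in WT C4b came, at 4.58 CPM per kb, after C1qb at 10.7, C1qc at 6.32 and C1qa at 6.23, and in tumours, at 41.2, after C1qb at 69.8 and ahead of C1qa at 35.4 and C1qc at 34.9. In WT and in tumours the ranges of C4b, C1qa, C1qb and C1qc over animals overlapped, so these orders describe medians only and are not beyond the spread.

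C3, on which all activation routes converge, had 1.35, 3.87, 5.27, 7.22, 9.12, 15.5 and 60.3 CPM in tumours. In WT at 150 dpi 3 of 6 animals had no count, and the others had 0.0945, 0.668 and 0.764 CPM. Every tumour exceeded every other bulk animal. The log2 change fitted by edgeR was 6.10 (SE 1.08, adjusted p 1.5e-05), a value that rests on few counts in WT, and without the highest tumour (Tumor_21354) it was 5.16.

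C3ar1, the receptor gene for C3a, had 4.73, 9.83, 9.89, 15.6, 24.7, 38.0 and 46.4 CPM in tumours. WT animals at 150 dpi had 1.00, 3.40, 3.50, 4.93, 5.10 and 5.67 CPM. The lowest tumour lay within the WT range and the other 6 above it, and by edgeR the log2 difference came to 2.36 (SE 0.48, adjusted p 9.7e-05).

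C5ar1, the receptor gene for C5a, was the lowest member per kilobase in tumours, with 0.943, 1.44, 1.51, 1.64, 3.39, 5.37 and 8.24 CPM. WT animals at 150 dpi had 0, 0.510, 0.545, 0.668, 1.45 and 2.27 CPM. The ranges overlapped, and by edgeR the log2 difference came to 1.72 (SE 0.72, adjusted p 0.0496). This call was lost in 18 of the 37 fits that left out 1 animal, the log2 change being 1.35 (adjusted p 0.118) without Tumor_16713.

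Serping1, which encodes the C1 inhibitor, had 4.31, 6.93, 7.31, 17.6, 22.1, 59.3 and 61.3 CPM in tumours. WT animals at 150 dpi had 1.70, 2.34, 2.90, 4.59, 5.86 and 6.80 CPM. The lowest tumour lay within the WT range, and by edgeR the log2 difference came to 2.54 (SE 0.56, adjusted p 0.00032). In all, 5 of the 8 members (the C1q genes, C3 and C4b) did not overlap between tumours and WT at 150 dpi, and 6.72% of all genes tested were higher in tumours without overlap.

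The tumours ranked alike for most members. Tumor_16839 was the lowest of the 7 for every member except C3ar1, for which Tumor_21256 was lowest. Tumor_16844 and Tumor_21354 took the first and second places for C1qa, C1qb, C1qc, C3 and C4b, whereas Tumor_16713 was highest for C5ar1. Both libraries of a tumour gave close values for C1qc (median ratio of the higher to the lower library 1.06), C1qb (1.22) and C4b (1.25), wider ones for C3 (1.86), and up to 7.05 for C5ar1.

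Tumours were next compared with the earlier Trp53-/- Nf1-/- cells at 90 dpi, a comparison that shares the tumours with the one above. All 8 members were higher in tumours, where 26.4% of all genes were called higher. The edgeR log2 changes were 2.35 for C1qa, 2.67 for C1qb, 2.75 for C1qc, 4.64 for C3, 3.31 for C4b, 2.59 for C3ar1, 2.46 for C5ar1 and 3.00 for Serping1, with adjusted p from 1.3e-09 (C1qb) to 0.0026 (C5ar1). C1qb, C1qc and C3 did not overlap between the groups, where 6.77% of all genes were higher without overlap. Animal CKO_20647, whose libraries disagreed, was the highest of its group for C1qa at 19.2 CPM and C4b at 109 CPM. It was also the highest for C1qb (18.7 CPM), C1qc (21.0 CPM) and C3 (1.04 CPM). Without it the changes were 2.68 for C1qa, 2.89 for C1qc and 3.76 for C4b. Then 5 members did not overlap, C1qa and C4b being added, where 8.02% of all genes were higher without overlap.

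At the earlier times no complement gene was called between the genotypes by the same test. At 12 dpi C1qa ranged from 2.51 to 14.5 CPM in CKO (median 7.88) and from 6.67 to 11.1 in WT (median 9.58). C1qb ranged from 5.44 to 15.8 CPM in CKO (median 10.8) and from 11.9 to 18.0 in WT (median 16.0). C4b ranged from 17.6 to 37.7 CPM in CKO (median 30.5) and from 20.3 to 35.1 in WT (median 28.5). The groups overlapped for all 8 members, and the edgeR log2 changes from WT ran from -0.94 (SE 1.17) for C3 to 0.09 (SE 0.40) for C4b. None of the 8 was called, and 3 of 16349 genes were (0.0183%), with 793 at an unadjusted p under 0.05 and 13 called by DESeq2.

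At 90 dpi the members again overlapped between CKO and WT. C1qa ranged from 6.68 to 19.2 CPM in CKO (median 7.57) and from 3.16 to 28.4 in WT (median 6.77), the WT maximum resting on 3 counts in the shallow library. C1qc ranged from 8.92 to 21.0 CPM in CKO (median 13.4) and from 7.87 to 13.4 in WT (median 9.48, which is 1 count in the shallow library). C4b ranged from 20.0 to 109 CPM in CKO (median 32.8) and from 9.48, again 1 count in that library, to 35.9 in WT (median 23.5). The edgeR log2 changes ran from -0.20 for Serping1 to 1.17 for C5ar1, with 0.72 (SE 0.43) for C1qa and 0.65 (SE 0.42) for C4b, and without CKO_20647 the last pair were 0.43 and 0.24. The value for C5ar1 was 0.75 without WT_22184 and 2.58 without WT_22254. None of the 8 was called, against 8 genes in all (0.0489%), with 850 at an unadjusted p under 0.05 and 18 called by DESeq2.

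The low members were near the limit of detection in these groups. C3 had no count in 3 of 5 WT and 3 of 7 CKO animals at 12 dpi, and in 3 of 5 WT and 1 of 7 CKO animals at 90 dpi, and its highest value was 1.08 CPM. C5ar1 stayed at or below 1.65 CPM in these groups. C3ar1 had medians of 2.68 to 4.47 CPM and Serping1 of 2.15 to 5.02 CPM across the 4 groups. With so few counts a small difference in C3 or C5ar1 was not detectable at this depth.

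No member was called between times within a genotype either. From 12 to 90 dpi in CKO the edgeR log2 changes ran from -0.71 (SE 0.52) for Serping1 to 1.82 (SE 0.96) for C3, and 0% of all genes was called, with 696 at an unadjusted p under 0.05 and 2 called by DESeq2. In WT they ran from -1.27 (C5ar1) to 0.44 (C3ar1) over the same interval, with 1 gene called (0.00612%), 795 at an unadjusted p under 0.05 and 9 called by DESeq2. From 90 to 150 dpi in WT they ran from -0.93 (C3) to 1.91 (C5ar1, adjusted p 0.558), with 3 genes called (0.0183%), 1350 at an unadjusted p under 0.05 and 20 called by DESeq2. The 3 C1q genes had log2 changes of 0.11 to 0.26 in that last comparison. From 12 to 90 dpi in CKO, C1qa changed by 0.11 and C4b by 0.45, and by -0.16 and 0.04 without CKO_20647.

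The difference between genotypes at 150 dpi was tested directly against that at 90 dpi as an interaction. It was larger at 150 dpi for 7 of the 8 members, where 14.2% of all genes were called in that direction. The edgeR log2 interaction was 2.22 for C1qa (SE 0.57, adjusted p 0.0026), 2.55 for C1qb (SE 0.44, adjusted p 1.9e-05) and 2.49 for C1qc (SE 0.50, adjusted p 0.00017). It was 3.25 for C4b (SE 0.56, adjusted p 2.2e-05) and 5.57 for C3 (SE 1.46, adjusted p 0.0033), although without WT_22254 of 90 dpi the value for C3 was 4.38 and was no longer called (adjusted p 0.0727). C3ar1 gave 2.50 (adjusted p 0.0037) and Serping1 2.74 (adjusted p 0.0078). For C5ar1 the interaction was 0.55 (SE 1.10, adjusted p 0.764). Without CKO_20647 the interaction was 2.52 for C1qa and 3.65 for C4b. Between 12 and 90 dpi it was called for none of the 8 members and 0% of genes, with 589 genes at an unadjusted p under 0.05 and 6 called by DESeq2.

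**Figure D2:**
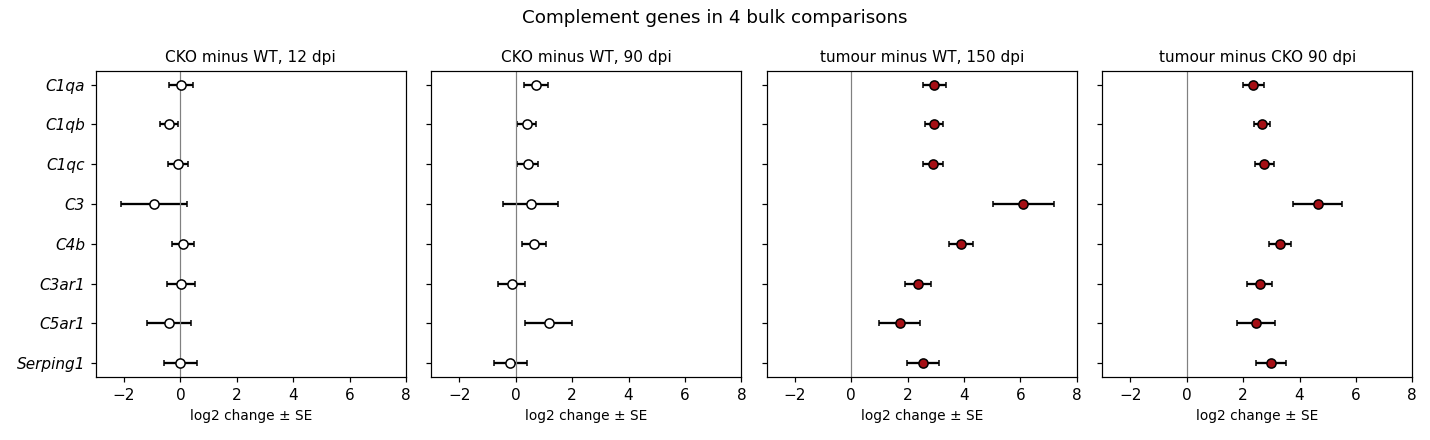
Points give the edgeR log2 change of each complement gene and bars its standard error in 4 bulk comparisons, filled where the adjusted p is under 0.05. The 8 points of each tumour comparison are filled and those of the CKO to WT comparisons at 12 and 90 dpi are open and lie between -0.94 and 1.17.

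Markers of other cells also differed between tumours and WT at 150 dpi, as did many genes: 24.3% of all tested were called higher and 21.9% lower. The 3 of 10 falls among fibroblast markers and among endothelial markers were near that share of lower genes. In a bulk sample, more cells of a type and more RNA per cell cannot be told apart. Of 16 myeloid markers 13 rose in tumours over WT at 150 dpi and none fell, and their summed level went from 96.3 to 181 CPM in WT to 391 to 1818 CPM in tumours. Of 12 microglia markers 8 rose and 1 fell, with sums of 258 to 371 CPM in WT and 323 to 698 CPM in tumours. Sall1, a transcription factor gene listed here with the microglia markers, was the one that fell, from a median of 170 to 78.1 CPM. It made up much of that sum, its WT median being above the highest WT sum of the other 11 markers (152 CPM). Which cells its transcripts came from was not tested. Without Sall1, a choice made after its level was seen, the sums were 113 to 152 CPM in WT and 225 to 621 CPM in tumours. Of 10 astrocyte markers 4 rose and 4 fell, with sums of 3367 to 4457 CPM in WT and 1341 to 4247 CPM in tumours. Of 10 fibroblast markers 5 rose and 3 fell, with overlapping sums whose medians were 431 CPM in WT and 172 CPM in tumours. Of 10 oligodendrocyte markers 1 rose and 6 fell (sums of 1563 to 3152 and 392 to 1640 CPM), of 10 endothelial markers none rose and 3 fell (223 to 337 and 107 to 256 CPM), and of 10 OPC markers 9 rose. No marker of these lists was at 0 throughout a group, in tumours or in any other, and the part of these cells in the complement results was not tested.

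Relative to these markers the members fell into different patterns, given as descriptions. Per 100 CPM of myeloid markers, C1qa had a median of 5.34 CPM in tumours and 4.61 in WT at 150 dpi, C1qb 9.30 and 8.60, and C1qc 9.65 and 8.66, and the groups overlapped. C3ar1 had 2.19 and 2.76 per 100 CPM, C5ar1 0.353 and 0.425, and Serping1 2.47 and 2.66, also overlapping. C4b had 50.6 against 20.1, with 6 of 7 tumours above every WT animal, and C3 1.19 against 0.0269, with 5 of 7 above. Per 100 CPM of microglia markers the C1q genes did differ without overlap, by 4.65 times for C1qa, 5.00 for C1qb and 3.85 for C1qc, and by 2.51, 2.69 and 2.50 times when Sall1 was left out. The size of the C1q difference relative to markers thus depended on which markers were used.

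**Figure D3:**
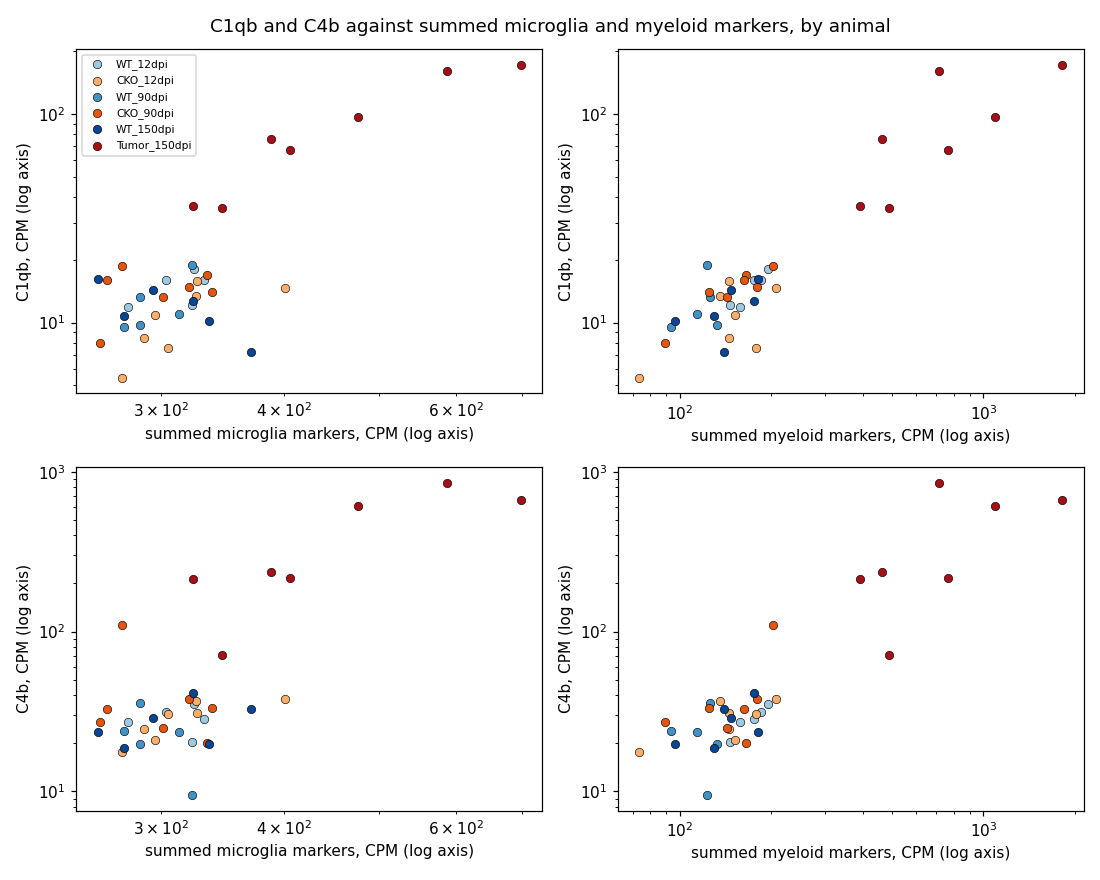
C1qb (top) and C4b (bottom) in CPM are plotted for each bulk animal against the summed microglia (left) and myeloid (right) markers, all on log axes, with 1 colour per group. Every tumour lies above the other animals in C1qb (from 35.4 CPM) and in myeloid markers (from 391 CPM), whereas on the microglia axis and in C4b the lowest tumours (323 and 71.4 CPM) lie within the range of the other animals.

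Among the 7 tumours, C1qb and C1qc followed the summed microglia markers most closely (Pearson r of log2 values 0.96 and 0.97), C1qa and C3 less so (0.91 and 0.88), and C5ar1 least (0.34). C3ar1 was closest to the myeloid sum (0.95). These are descriptions over 7 animals, and both values of a point come from the same libraries. The microglia sum used here includes Sall1, and correlations with the sum without it are not given here. In 29 animals without tumours the C1q genes followed the myeloid sum more closely than the microglia sum. There r with the microglia sum was 0.20 for C1qa, 0.22 for C1qb and 0.24 for C1qc. With the myeloid sum it was 0.67, 0.69 and 0.78. The myeloid value was also the higher one for every other member in these animals. Sall1 made up much of the microglia sum outside tumours (in WT at 150 dpi a median of 309 CPM with it and 138 CPM without). Its part in this contrast was not tested. Over the group-centred log2 CPM of 36 animals with at least 1e+06 counts, genes among the 3 most like C1qb were Ctsb (r = 0.82) and Axl (0.81). Those most like C1qa were Apoe, Axl and Cyth4 (each 0.73), and those most like C1qc were Wasf2 (0.83), Dnase2a (0.78) and P2rx7 (0.77). C4b was most like Extl3 (0.84), Ndst3 (0.82) and Col12a1 (0.80). Serping1 was most like Slc22a6 (0.78), Bmp6 (0.77) and Stra6 (0.75), C3ar1 like A930004D18Rik (0.74), Nradd (0.70) and Plxnb1 (0.66), C3 like Gak (0.69), Sgk2 (0.66) and Rap1gds1 (0.66), and among those most like C5ar1 were 2310022B05Rik (0.66) and Creb3l1 (0.66). The C1q genes correlated with one another at 0.65 to 0.74.

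The rest of the complement system was read from 5 lists with 45 genes, of which 44 were in the table and 27 passed the filter on low counts. That filter was set over all 37 bulk animals, tumours included, so a gene low elsewhere could pass through its tumour level. C1ra and Itgax had medians of at most 0.349 and 0.335 CPM in the groups without tumours, and 3.68 and 19.4 CPM in tumours. The counts of rises below are therefore descriptions only. In the classical and lectin list 3 of 7 tested genes rose in tumours over WT at 150 dpi and none fell. C1ra and C1s1 encode the proteases that C1q activates. C1ra ranged from 0 to 0.817 CPM in WT and from 0.943 to 14.9 in tumours, without overlap (log2 change by edgeR 3.75, SE 0.80, adjusted p 0.00021). C1s1 ranged from 0 to 1.70 CPM in WT and from 1.58 to 20.3 in tumours (log2 change by edgeR 3.46, SE 0.83, adjusted p 0.00075). C2, which forms the C3 convertase with C4, rose by 2.40 (SE 0.63, edgeR adjusted p 0.0019). In the alternative pathway list Cfb, the factor B gene, rose by 2.09 (SE 0.51, edgeR adjusted p 0.0009), 1 of 2 tested.

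Of 5 receptor genes tested 3 rose and none fell: Itgax, the alpha chain gene of complement receptor 4, went from 0 to 0.545 CPM in WT to 3.73 to 30.8 in tumours (log2 change by edgeR 5.89, adjusted p 1.2e-06), and Itgb2, its beta chain gene, and Itgam, the alpha chain gene of complement receptor 3, rose by 2.63 and 1.41. Of 12 regulators 2 rose and 3 fell, shares near those of all genes (24.3% called higher and 21.9% lower). Cd46, which encodes a membrane cofactor protein for C3b cleavage, fell from 94.7 to 194 CPM in WT to 19.2 to 45.2 CPM in tumours (log2 change by edgeR -2.14, adjusted p 2.6e-12). Susd4 (-1.20) and Vtn (-1.23) fell and Csmd2 (1.28) rose, and the call for Vtn was lost with only the groups compared (edgeR adjusted p 0.0672). In the terminal list C6 was the 1 gene tested and fell by 1.64 (edgeR adjusted p 0.0189), a call lost without WT_22064 (-1.34, adjusted p 0.0843). The other terminal genes, including Hc, which encodes C5, did not pass the filter.

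In the small libraries, C1q and C4b transcripts were found in more of the 10-cell samples at 90 dpi than at 12 dpi. So were 94.1% of the 5060 genes found in 30 to 60% of those samples at 12 dpi, a band that C4b exceeded. The small libraries held 1.64 to 6.49 M counts (10-cell) and 1.91 to 5.16 M (pool-and-split). C1qa had a count in 23 of 56 10-cell libraries at 12 dpi (41.1%, exact 95% interval 28.1 to 55.0) and 48 of 56 at 90 dpi (85.7%, 73.8 to 93.6). C1qb went from 30 (53.6%) to 52 (92.9%) and C1qc from 29 (51.8%) to 51 (91.1%) of 56. C4b went from 38 (67.9%) to 53 (94.6%) and Serping1 from 23 (41.1%) to 36 (64.3%). All 3 C1q chains were found in 14 libraries at 12 dpi and 43 at 90 dpi, and none of them in 17 and 1. The intervals cover counting error only, and libraries of a set share their source.

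The replicate here was the set, defined by time, sex and the number that ends the label, with 4 sets per time. The labels do not say whether sets are separate animals, so the spread between them may be technical. For C1qa the 12 dpi sets had 3, 6, 7 and 7 positive libraries of 14 and the 90 dpi sets 9, 12, 13 and 14. For C1qb they had 5, 7, 8 and 10, and then 12, 12, 14 and 14. These 2 members did not overlap between times and the other 6 did, while 10.7% of 21329 genes were found in more libraries at 90 dpi without overlap.

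Many other genes were also found more often. Among 5060 genes found in 30 to 60% of 10-cell libraries at 12 dpi, the median went from 44.6 to 64.3%, and 94.1% of them were found more often at 90 dpi. Genes found per 10-cell library had a median of 7550 at 12 dpi and 10109.5 at 90 dpi, and microglia markers 5 and then 8 of 12. The part of this wider detection in the C1q result was not tested.

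In the pool-and-split controls the genes found per library were close, with medians of 8690.5 and 8739. There C1qa went from 16 of 40 (40.0%) to 37 of 40 (92.5%) libraries. The 12 dpi sets had 1, 3, 6 and 6 positive libraries of 10 and the 90 dpi sets 8, 9, 10 and 10. The controls carry the same set labels as the 10-cell libraries, so both kinds may come from the same sources. Whether wider detection had a part in the C1qa result was not tested here either. C1qa was the only member without overlap in these controls, where 1.48% of 20610 genes were. C1qb went from 29 to 34, C1qc from 28 to 31, C4b from 34 to 36 and Serping1 from 20 to 18 of 40, all overlapping between sets. At 12 dpi a single library held 56.7% of all C1qa counts of these controls.

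The remaining members were sparse. C3 was found in 3 and 6 of 56 10-cell libraries and 1 and 3 of 40 controls at 12 and 90 dpi, C3ar1 in 9 and 12, and 11 and 8. C5ar1 was found in 3 and 1 of 56 and in 0 of 40 at both times, which allows a share of up to 8.81% (exact 95% interval). Single libraries dominated some levels: 76.5% of C3ar1 counts in 10-cell samples at 90 dpi and 51.9% of Serping1 counts in the controls at 12 dpi came from 1 library each.

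**Figure D4:**
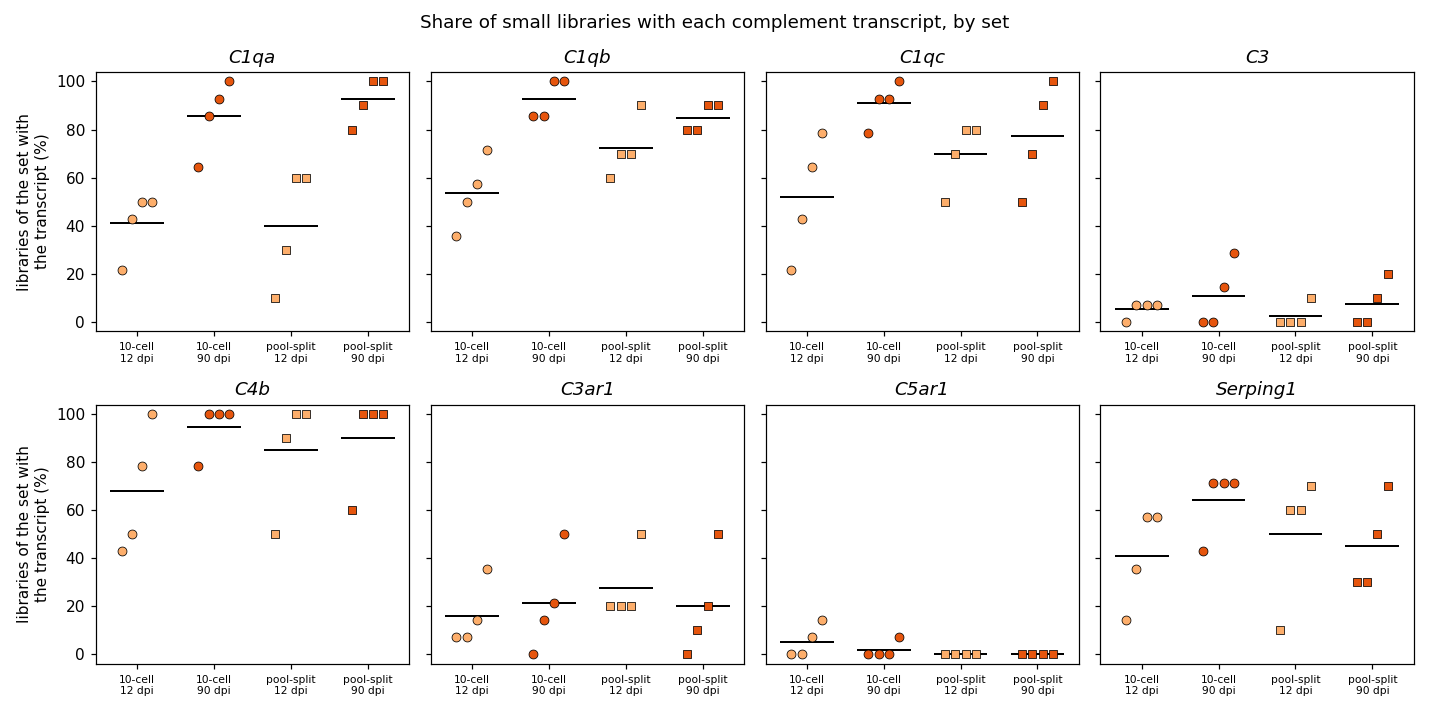
Each panel plots 1 complement gene, with the percent of a set's libraries that held the transcript, for 10-cell and pool-and-split sets at 12 and 90 dpi (4 sets each). C1qa sets at 90 dpi lie above those at 12 dpi in both kinds, which carry the same set labels, and C3 and C5ar1 stay low.

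Counts summed per set gave no called change with time. In the 10-cell sets 7 members were tested by edgeR, with log2 changes of 2.41 for C1qa (SE 0.99, adjusted p 0.641), 1.79 for C1qb (SE 0.54, adjusted p 0.575), 0.89 for C1qc and 1.53 for C4b. The value for C3 was -2.88 with an SE of 6.22. None was called, nor was any of 15190 genes (0%), with 1111 at an unadjusted p under 0.05 and 326 called by DESeq2. In the pool-and-split sets 6 members were tested, with 2.55 for C1qa (adjusted p 0.723), 1.38 for C1qb and -2.06 for Serping1. None was called there either, nor was any of 14235 genes (0%), with 1127 at an unadjusted p under 0.05 and 593 called by DESeq2.

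Levels of the C1q chains were also compared with one another across small libraries, as a description. Spearman rho between pairs of chains was 0.35 to 0.52 at 12 dpi and 0.41 to 0.49 at 90 dpi over 56 libraries, and 0.07 to 0.24 and 0.01 to 0.04 over 40 controls. At 90 dpi C1qa had a rho of 0.58 with the summed microglia markers in 10-cell libraries and -0.03 in the controls. C4b had 0.19 and -0.11. The libraries of each kind share sets.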

How the data were processed

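Deposited expected counts per gene were used for 240 mouse libraries: 48 bulk libraries of 37 animals, 112 10-cell and 80 pool-and-split libraries. The authors used Bowtie2 and RSEM with GRCm38, per the submitters' processing notes, with versions not given in the sources used here. Per the labels' protocols, bulk RNA was amplified linearly by T7 transcription from 10 µm sections, and small samples by PCR with Nextera XT from 8 µm sections, so the kinds were not compared in level. RSEM shares reads between near-identical genes, which bears on C4b. The spike-in rows (92) were dropped.

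Libraries of an animal (or set) were summed and rounded. edgeR 4.0.16 (R 4.3.3) was fitted to all 37 animals with filterByExpr (minimum count 10, minimum total 15), TMM scaling, group and sex, and the quasi-likelihood test was adjusted by Benjamini-Hochberg over all genes (threshold 0.05). The bulk filter counted tumours too, so genes low elsewhere, such as C3 (group medians of at most 0.299 CPM outside tumours), could pass through them. The 10-cell and pool-and-split sets were fitted separately. The test was tested on simulated data. CPM values of bulk animals use the TMM-scaled total of the genes that passed the filter, and those of single libraries the plain total. Detection means an unrounded expected count above 0, with exact Clopper-Pearson intervals. Depth per library was 0.0936 to 23.2 M counts (M, 1e+06) in bulk, 1.64 to 6.49 M in 10-cell and 1.91 to 5.16 M in pool-and-split libraries, and the variation shared by all genes (edgeR's biological coefficient) came to 0.418 in bulk, 0.995 in 10-cell and 1.13 in pool-and-split sets. No 2 libraries held identical values (0 pairs).

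The members and all gene lists were chosen with earlier results of these data known, so no count over a list is independent evidence. All 8 members are named, of each other complement list up to 3 called rises and 3 called falls, and for each member the 3 genes of highest correlation, except that some genes picked by these rules are not reported here. Alternatives were DESeq2 1.42.0, other scaling, other filters, the deepest library per animal, no sex term, only the groups compared, each animal or set left out, each library as a replicate, a replicate block, and a detection threshold of 5. The labels do not say that bulk animals of a group were littermates or processed together, and no batch is named in them.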

Additional observations from a re-analysis of the deposited data

Results flagged for a closer look

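In 8 of the 48 combinations of member and bulk group, 1 animal stood far from the rest of its group. The rule, the gap to the nearest animal over the range of the group, flags about 1 in 20 for normally distributed values. CPM of few animals, some near the floor, need not be so distributed, so 8 of 48 is no measure of an excess. In CKO at 12 dpi these were CKO_22017 for C3ar1 (8.29 CPM, the nearest other animal 3.25) and CKO_22364 for Serping1 (17.6 CPM, nearest 4.51). In WT at 90 dpi they were WT_21167 for C1qa (28.4 CPM, nearest 7.87) and Serping1 (9.48 CPM, nearest 4.16), from 3 counts and 1 count in its library of 0.0936 M counts, and WT_22254 for C5ar1 (0.720 CPM, nearest 0.154). In CKO at 90 dpi CKO_20647 stood apart for C1qa (19.2 CPM, nearest 12.0) and C4b (109 CPM, nearest 38.1). Its 2 libraries had C1qa at 0.106 and 32.4 CPM and C4b at 0 and 185 CPM. Among tumours Tumor_21354 stood apart for C3 (60.3 CPM, nearest 15.5).

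The genotype difference was larger at 150 than at 90 dpi by the interaction test for C1qa (log2 2.22), C1qb (2.55), C1qc (2.49), C3 (5.57), C4b (3.25), C3ar1 (2.50) and Serping1 (2.74). At 150 dpi that difference sets tumours against WT.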

How the results depend on the processing

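Over 85 tests of members and 3304 refits, the sign changed in 82, all of them for genes not called at first, 22 calls were lost and 1 was gained. Counting only genes with a mean of at least 10 CPM left 4 members to test. All 4 were called in tumours against WT, in tumours against CKO at 90 dpi and in the interaction of 150 with 90 dpi. The mean was taken over all 37 animals, tumours included, so a gene could pass through its tumour level. C1qa had group means of 6.40 to 10.0 CPM outside tumours and 49.7 CPM in tumours. At this filter 5435 genes in all were called in tumours against WT and 5802 against CKO at 90 dpi. The C5ar1 rise over WT was not called with no filter (1.73, adjusted p 0.0778), with the deepest library of each animal (1.38, 0.123) or with only the groups compared (1.51, 0.12), all by edgeR. Leaving out each animal in turn gave 7 to 8 called members in tumours against WT and 6 to 7 in the interaction. Over all alternatives 5394 to 8017 genes in all were called in the former and 3878 to 5555 in the latter. In 24 of the 85 tests the value took both signs when 1 animal or set was left out. Among those named above they ranged from -1.71 to 0.35 for C3 in WT from 90 to 150 dpi, -0.91 to 1.19 for C5ar1 in the interaction of 150 with 90 dpi, -0.50 to 0.38 for Serping1 in that of 90 with 12 dpi, and -7.24 to 0.81 for C3 in 10-cell sets. C4b in CKO against WT at 12 dpi was -0.0092 with only the groups compared, and C3 in 10-cell sets 1.45 without the sex term. The cause was not tested. With each library as a replicate 1 member, C1qa, was called in 10-cell samples (2.35, edgeR adjusted p 0.0332). Without CKO_20647, chosen after seeing the data, 5 members in place of 3 did not overlap between tumours and CKO at 90 dpi. Leaving Sall1 out of the microglia sum, chosen likewise, gave C1q ratios of 2.51, 2.69 and 2.50.

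Counts over all genes ranged over the alternatives from 1 to 90 for CKO against WT at 12 dpi, 4 to 18 at 90 dpi, 0 to 2 for CKO and 0 to 285 for WT from 12 to 90 dpi, 1 to 20 for WT from 90 to 150 dpi, 0 to 6 for the interaction of 90 with 12 dpi, 0 to 355 in 10-cell and 0 to 593 in pool-and-split sets (336 there with each library as a replicate). The highest came with DESeq2, except that 90 and 285 came with only the groups compared and 355 with each library as a replicate. In the tumour comparisons and the later interaction they stayed within 1.5 times. A detection threshold of 5 counts gave C1qa in 25.0% of 10-cell libraries at 12 dpi and 80.4% at 90 dpi. In the controls it gave 25.0% and 77.5%, and C5ar1 was at 0% in both kinds. Same-numbered sets did not deviate together (correlations -0.0332 to 0.0191 in 10-cell and -0.0393 to -0.0027 in pool-and-split sets), so the numbers were not taken as pairs. With a replicate block on them 0 members were called in either kind, and C1qa had log2 changes of 2.76 and 3.00. The planned sum of C4a and C4b was not run, since C4a was not analysed here. Depth limits C3 and C5ar1 outside tumours, where many animals had no count.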
